A study of Mus musculus with 2 samples.

Results

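The anterior visceral endoderm (AVE) is the group of visceral endoderm cells that, before and during gastrulation, moves to the prospective head side of the mouse embryo. There it secretes inhibitors of Wnt and Nodal signals, such as Dkk1, Cer1 and Lefty1, that keep the primitive streak on the opposite side, and it is marked by transcription factors such as Hhex, Otx2, Lhx1 and Gsc. The rest of the visceral endoderm absorbs and transports nutrients, through the receptors Cubn, Lrp2 and Amn and through apolipoproteins.

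Cells of E7 mouse embryos came in 1 pool per genotype, of 4 controls and of 3 conditional *Yap1* knockouts (*Yap1* cKO). A pool gave 1 droplet library, which counts unique molecular identifiers (UMIs), each standing for 1 captured RNA molecule. *Yap1* cKO embryos were Sox2-Cre:Yap1 flox/flox, in which Sox2-Cre deletes *Yap1* in the epiblast and its descendants. The controls are called wild type in the sample labels, and in the study they are described both as Sox2-Cre:Yap flox/+ and as floxed littermates without Cre. The study regards the extraembryonic tissues, to which the visceral endoderm belongs, as likely heterozygous for *Yap1* in both genotypes. The labels give both pools as female. However, 51.7% of the 791 control cells and 15.5% of the 864 *Yap1* cKO cells carried UMIs of Y-linked genes and no *Xist*, so both pools held male embryos. Which embryo a cell came from is not known, and the libraries shared 2 barcodes, none of them among the kept cells.

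AVE cells were selected on their RNA. Kept cells had at least 5000 detected genes and at most 10% mitochondrial UMIs. A member had at least 200 CPM (UMIs of a gene relative to all UMIs of the cell, on the counts-per-million scale) summed over *Ttr*, *Afp*, *Apoa4*, *Apoa1* and *Rbp4*, at least 5 UMIs of *Sfrp5*, *Dkk1* and *Hesx1* together, and at most 1 UMI of *Pou5f1*, an epiblast gene. This gave 77 members of 1655 cells, 27 in the control and 50 in the cKO library, with a median of 55850 and 73540 UMIs per cell. They were 3.41% of control cells (95% Clopper-Pearson interval 2.26 to 4.93) and 5.79% of *Yap1* cKO cells (4.33 to 7.56). The other visceral endoderm used for comparison was every kept cell with at least 1000 CPM of the same 5 genes that was not a member, and held 71 control and 175 *Yap1* cKO cells. It had up to 4 UMIs of *Sfrp5*, *Dkk1* and *Hesx1* together per control cell and up to 19 per cKO cell, since 2 cKO cells with 2 or 3 *Pou5f1* UMIs and 2 with more failed as members by *Pou5f1* alone. Of members and other visceral endoderm together, members were 27.6% in the control and 22.2% in cKO, with intervals that overlap, so the order of the libraries depends on the denominator. The 9 gate genes chose the cells, so their values describe the choice and support nothing.

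With 1 library per genotype, no test between genotypes was possible. Levels are CPM of UMIs added up across a population's cells. Intervals are exact 95% limits of the counting error, without the differences between embryos. Against the other visceral endoderm, a gene is called higher or lower where its ratio reached 2-fold in both libraries, whatever its interval. Between genotypes it is called where the ratio reached 2-fold with an interval that leaves out 1.

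Within the gate the UMI sum of *Sfrp5*, *Dkk1* and *Hesx1* ran from 5 to 288 in control members, with a median of 20. In *Yap1* cKO members it ran from 5 to 522, with a median of 12.5. *Dkk1*, a secreted Wnt inhibitor, was the widest of them, from 0 to 268 UMIs per control cell and from 0 to 497 per *Yap1* cKO cell. *Sfrp5*, a secreted Wnt-binding protein, reached 29 and 39 UMIs, and *Hesx1*, a homeobox repressor of the anterior, 31 and 23. At the edge of the gate, 3 control and 9 *Yap1* cKO members had exactly 5 UMIs, and 5 and 10 cells with 4 UMIs fell just outside. The limit of 200 CPM excluded 24 control and 32 *Yap1* cKO cells that passed the other gates, and 1 member in each library lay between 200 and 1000 CPM.

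The members were not uniform. *Fzd5*, a Wnt receptor, and *Hhex*, a homeobox factor of the migrating AVE, were abundant in some cells and near 0 in the others. Members with at least 10 UMIs of *Fzd5* and *Hhex* together are called marker-rich below, a limit chosen after the values were seen. They were 15 of 27 control members (55.6%, 35.3 to 74.5) and 16 of 50 *Yap1* cKO members (32.0%, 19.5 to 46.7). Of all cells they made up 1.90% (1.07 to 3.11) of the control library and 1.85% (1.06 to 2.99) of the cKO library. Of members and other visceral endoderm together they were 15.3% (8.83 to 24.0) and 7.11% (4.12 to 11.3). Few cells lay near the limit: 2 control and 4 *Yap1* cKO members had 5 to 9 UMIs, and 1 and 2 had 10 to 19.

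*Cer1*, which encodes an inhibitor of Nodal, BMP and Wnt ligands and is not a gate gene, divided the members in a similar way, with overlap. Marker-rich control cells held 0 to 71 *Cer1* UMIs with a median of 38, and marker-rich *Yap1* cKO cells 2 to 106 with a median of 26.5. In the other members the median was 0.5 UMIs in the control and 0 in the cKO library, but single cells reached 31 and 39 UMIs. *Otx2*, a homeobox factor needed for the forebrain and for AVE movement, was seen in all 15 marker-rich control cells (1 to 40 UMIs) and in 14 of 16 marker-rich *Yap1* cKO cells (0 to 39). It was seen in only 3 of 12 and 3 of 34 of the other members. *Apob*, which builds lipoprotein particles, ran the opposite way, with 0 to 38 UMIs in marker-rich control cells and 31 to 187 in the other control members. In the cKO library it had 4 to 188 and 21 to 395 UMIs, so these ranges overlapped.

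**Figure D1:**
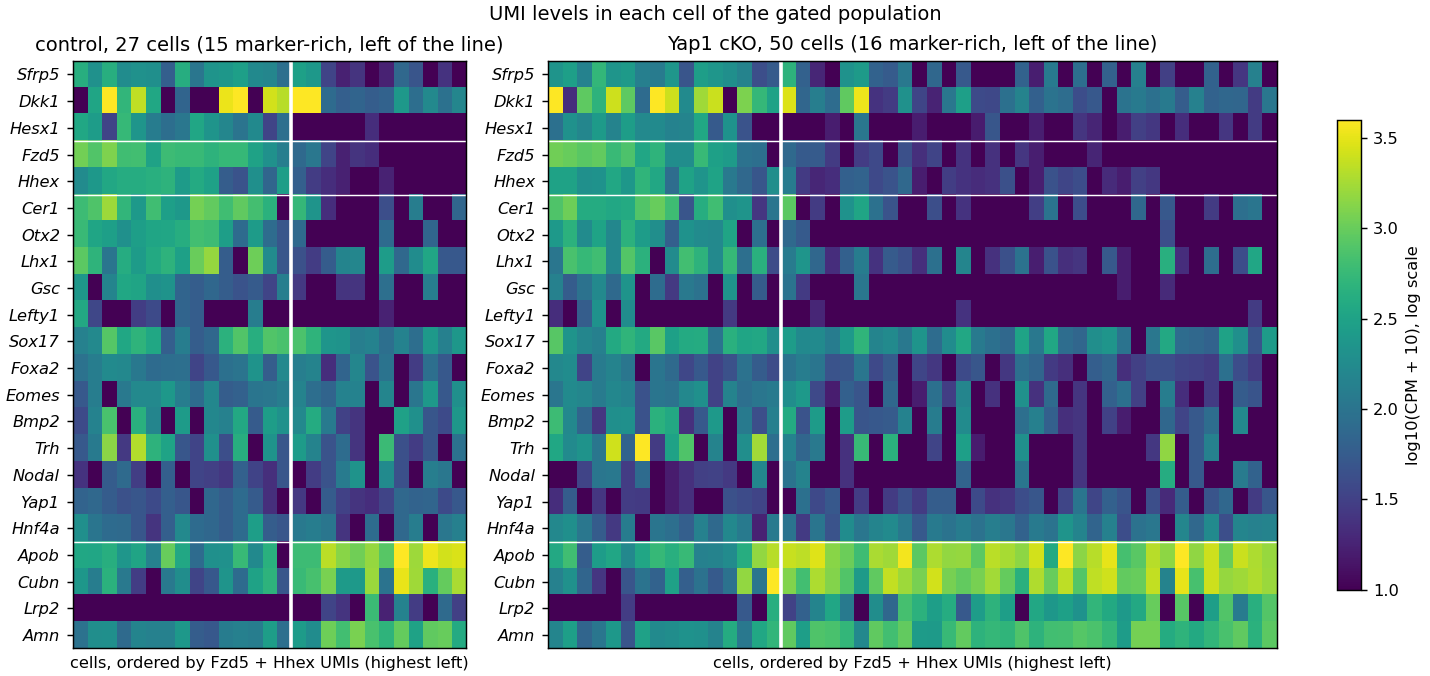
Level of 22 genes (rows) in each member (columns) of the control and *Yap1* cKO libraries, as log10(CPM + 10), with cells ordered by *Fzd5* and *Hhex* UMIs. The 15 control and 16 *Yap1* cKO cells left of the thick line are marker-rich and hold most *Cer1*, *Otx2* and *Gsc*, whereas *Apob*, *Cubn* and *Lrp2* are mostly right of it.

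Across cells, Spearman's rho of *Cer1* and *Otx2* CPM was 0.78 over the 27 control and 0.69 over the 50 *Yap1* cKO members, and that of *Otx2* and *Apob* was -0.73 and -0.63. Within the marker-rich cells they were weaker, 0.28 and 0.36 for *Cer1* and *Otx2* and -0.06 and -0.29 for *Otx2* and *Apob*. For these pairs the values over all members thus mainly follow the division. Not every pair weakened: *Otx2* and *Lhx1* had 0.71 in both libraries over all members and 0.68 and 0.69 within the marker-rich cells. The correlations describe cells of 1 library each, which share depth and the gate. Most marker-rich cells held the AVE markers *Cer1*, *Otx2*, *Gsc* and *Lhx1*, with exceptions. Among these, 2 cKO cells had no *Otx2* or *Gsc* UMI and 1 control cell had no *Cer1* UMI. *Gsc* was seen in 93.3% of marker-rich control and 75% of marker-rich cKO cells, and *Lhx1* in 93.3% and 93.75%. *Lefty1* was seen in only 46.7% and 31.25%. The remaining 46 members had more *Apob*, *Cubn* and *Apoc2* than the marker-rich, most with only a few UMIs of *Dkk1* or *Sfrp5*, and are called the members outside the marker-rich.

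These 46 cells were not alike either. By a division chosen after the values were seen, 5 control and 4 *Yap1* cKO cells among them had at least 5 *Nodal* UMIs. Nodal is the ligand that the AVE inhibitors Cer1 and Lefty1 act against. These 5 and 4 cells had 182 and 194 CPM of *Lhx1*, against 49.1 and 34.1 CPM in the remaining 7 and 30 cells. *Eomes*, a T-box factor of AVE and streak, stood at 133 and 166 CPM against 76.1 and 30.2 CPM. *Cer1* was low in them, at 8.88 and 22.6 CPM. *Apoc2* stood at 522 and 367 CPM, against 3106 and 5396 CPM in the remaining cells, or 988 and 5103 CPM without the top cell of each, which held 74.6% of the control UMIs. Another 2 control and 3 *Yap1* cKO cells outside the marker-rich held at least 50 *Dkk1* UMIs, and all 5 had *Cer1* (11 to 39 UMIs).

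Against the other visceral endoderm, genes higher in the members included secreted inhibitors, Wnt receptors and homeobox factors. Of 7141 genes with at least 100 UMIs over both populations in each library, 233 (3.26%) were at least 2-fold higher in members of both libraries and 49 (0.686%) at least 2-fold lower. The median ratio of all genes was 0.992 in the control and 1.02 in the cKO library. The gate uses genes of the same cells, so the ratios describe the gated cells.

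Of the 16 AVE markers outside the gate, 12 reached the UMI minimum, 10 were higher (*Cer1*, *Hhex*, *Lhx1*, *Fzd5*, *Otx2*, *Gsc*, *Sfrp1*, *Eomes*, *Amot* and *Shisa2*) and none was lower. Their median log2 ratio was 3.80 in the control and 3.52 in the cKO library. *Cer1* stood at 346 CPM in control members and 12.0 CPM in the other visceral endoderm, a ratio of 28.9 (22.4 to 37.8). Among cKO cells it stood at 156 and 2.19 CPM, and the ratio was 71.4 (49.8 to 106). *Otx2* had a ratio of 19.2 (14.0 to 26.9) among control cells and of 21.3 (15.0 to 31.2) among cKO cells. *Gsc*, a homeobox repressor, had ratios of 39.2 (20.6 to 83.8) and 14.0 (8.79 to 23.1). *Foxa2* and *Prdm1* were between the limits in at least 1 library: *Foxa2* had ratios of 3.24 and 1.98, and *Prdm1* of 1.96 and 2.02. *Lefty1*, the Nodal inhibitor, was scarce, with 41 and 31 UMIs in all members, and did not reach the minimum.

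**Figure D2:**
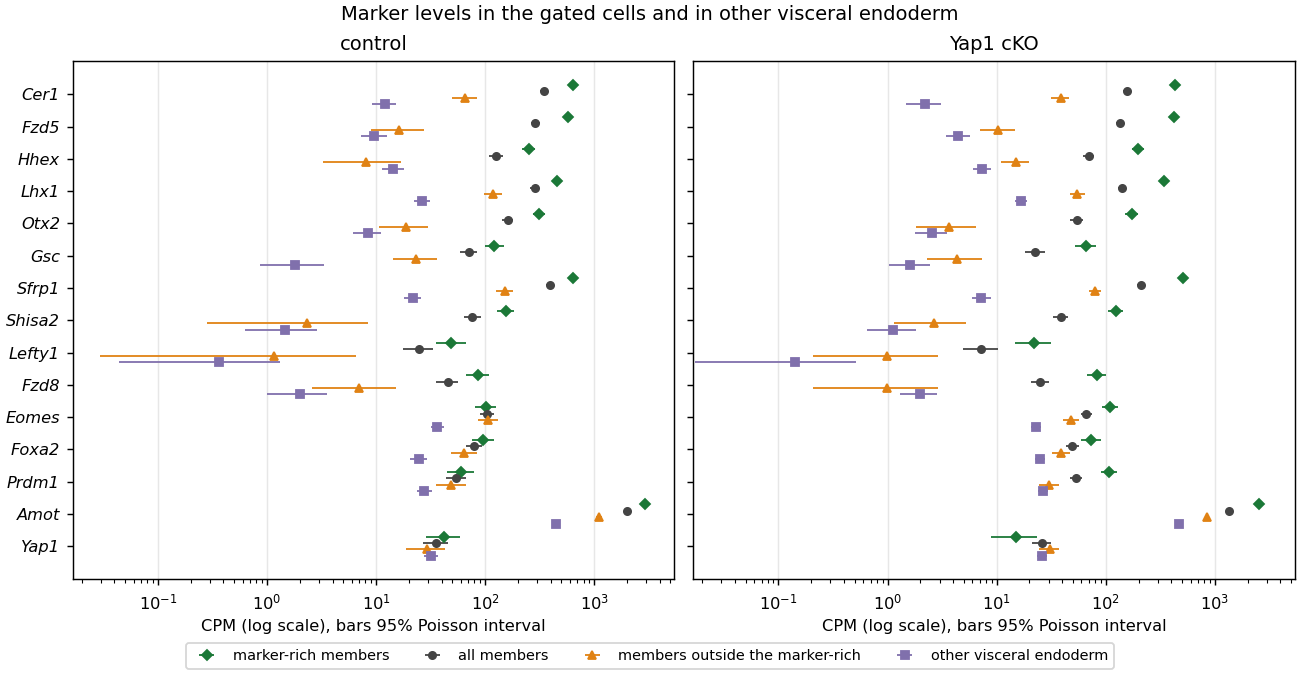
CPM of 14 AVE markers and *Yap1* (rows) in 4 populations of each library on a log axis, with bars for the 95% Poisson interval. *Cer1* lies at 643 and 434 CPM in marker-rich members and at 12.0 and 2.19 CPM in the other visceral endoderm, and *Eomes* differs less between the populations. *Fzd5* and *Hhex* defined the marker-rich cells.

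After cells were thinned to 31000 UMIs each, *Cer1* was detected in 76.0% of 25 control members (54.9 to 90.6) and 59.2% of 49 *Yap1* cKO members (44.2 to 73.0). The share was 5.80% and 3.03% in the other visceral endoderm and 0% in the extraembryonic ectoderm, a trophoblast tissue, where 0 of 181 control cells had a UMI. The median depths before thinning were 55850 and 73540 UMIs in members and 85015 UMIs in the control extraembryonic ectoderm. Members outside the marker-rich had *Cer1* in 45.5% of 11 cells (16.7 to 76.6) and 42.4% of 33 cells (25.5 to 60.8). *Otx2* was detected in 68.0% of control and 32.7% of *Yap1* cKO members, and in 0.552% of the control extraembryonic ectoderm. The epiblast, which also uses *Otx2*, held it in 92.1% and 92.8% of cells.

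Among Wnt antagonists outside the gate, 5 of 20 reached the minimum and 3 were higher (*Sfrp1*, *Cer1* and *Shisa2*). *Sfrp1*, like *Sfrp5* a secreted Wnt-binding protein, stood at 392 CPM in control members against 21.6 CPM, and at 209 against 7.26 CPM in the cKO library. *Shisa2*, which retains Wnt and FGF receptors inside the cell, had 76.6 against 1.45 CPM and 38.8 against 1.13 CPM. Of 30 Wnt ligands, receptors and response genes, 16 were measured and 6 were higher. These were the receptors *Fzd5*, *Fzd7* and *Ror2*, the transcription factors *Tcf7l1* and *Tcf7l2*, and the Wnt target *Sp5*. *Fzd5* had 289 against 9.64 CPM in the control (interval of the ratio 22.6 to 40.6). In cKO it had 134 against 4.44 CPM, a ratio of 30.2 (23.2 to 39.8). *Sp5* was lower in the marker-rich cells (22.1 and 43.2 CPM) than in the other control members (120 CPM), and level with the other *Yap1* cKO members (44.5 CPM).

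In the Nodal pathway, 11 of 22 genes were measured and 3 were higher: the ligand *Nodal*, its coreceptor *Cfc1*, and *Cer1*. *Nodal* stood at 52.1 against 8.18 CPM in the control and 30.3 against 5.57 CPM in the cKO library. In the control it was lower in marker-rich (23.4 CPM) than in the other members (79.3 CPM), whereas in cKO the levels were 33.7 and 28.9 CPM. These other members include the 5 control and 4 *Yap1* cKO cells with at least 5 *Nodal* UMIs. Without the top cell of each library, *Nodal* stood at 19.9 and 20.9 CPM in marker-rich cells. In the BMP pathway, 14 of 23 genes were measured. The ligand *Bmp2* (ratios 4.17 and 3.96), the decoy receptor *Bambi* (5.89 and 4.15) and *Smad5* (3.76 and 2.17), which carries the BMP signal, were higher, and the BMP target *Msx1* was lower (0.336 and 0.448). In marker-rich cells *Msx1* stood at 7.38 and 6.28 CPM, against 109 and 162 CPM in the other visceral endoderm.

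Of 20 FGF genes, 15 were measured. The ligands *Fgf5* (12.3 and 10.8), *Fgf8* (10.3 and 5.88) and *Fgf10* (2.68 and 2.13) were higher, and *Dusp6*, an ERK phosphatase induced by FGF, was lower (0.404 and 0.481). Of 28 genes of migration, polarity and guidance, 20 were measured. *Cdh2*, *Epcam*, *Flrt3*, *Epha4*, *Plxna2* and *Robo1* were higher and *Efnb1*, an ephrin ligand, was lower, at 20.9 against 104 CPM in the control and 48.6 against 102 CPM in the cKO library. *Robo1*, a guidance receptor, had ratios of 4.63 (3.55 to 6.07) and 5.02 (3.96 to 6.39). *Rac1*, *Nckap1* and *Wasf2*, which act on the actin cytoskeleton, were not past 2-fold.

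Other lists divided. Among 15 transcription factors of the visceral endoderm, 11 were measured and *Sox17*, *Otx2*, *Eomes* and *Foxq1* were higher. *Gata4* (1.01 and 1.10) and *Hnf4a* (0.783 and 0.829), general factors of this tissue, were between the limits. Among 21 apolipoproteins and secreted proteins, 16 were measured, and *Apoa2*, *Apoc2*, *Apoc3* and *Fga* were lower. *Apoc2*, an activator of lipoprotein lipase, stood at 913 CPM in control members against 8073 CPM, and at 3357 against 9807 CPM in the cKO library. In the marker-rich cells alone it was 32.0 and 111 CPM. None of 13 endocytic and lysosomal genes passed 2-fold in both libraries, but *Lrp2* had 0 of 813437 UMIs in the control marker-rich cells, which allows up to 3.69 CPM, against 336 CPM in the other visceral endoderm. In cKO marker-rich cells it stood at 26.7 CPM, 79.4% of it in 1 cell, against 328 CPM. Of 23 cell cycle genes, 19 were measured. *Cdkn2a*, an inhibitor of cyclin-dependent kinases, was higher (2.71 and 2.67) and *Myc* was lower (0.218 and 0.474). In the Hippo pathway, 16 of 25 genes were measured, and *Tead2*, a DNA-binding partner of YAP1 (3.29 and 2.98), and *Amot*, a YAP1 inhibitor (4.43 and 2.87), were higher. None of 13 measured extracellular matrix genes passed.

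The ranking took genes with a UMI in at least 50% of the cells of the higher population in each library. For the highest genes this population was the members, and the lower of both ratios was ranked. This left out *Otx2*, *Gsc* and *Shisa2*, seen in 17, 17 and 18 of 50 cKO members. For the lowest genes the limit applied to the other visceral endoderm. The 10 highest were *Irs4*, *Fzd5*, *Cer1*, *Gpc4*, *Sfrp1*, *Krt7*, *Chst15*, *Trh*, *Flt1* and *Dbn1*. *Irs4*, an insulin receptor substrate, had 82.0 CPM in control members against 1.82 CPM, a ratio of 45.1 (23.8 to 96.1). In the cKO library it had 42.3 against 1.20 CPM, a ratio of 35.2 (21.4 to 61.8). *Gpc4*, a cell surface heparan sulphate proteoglycan, had 643 against 26.4 CPM and 324 against 10.8 CPM. The 10 lowest were *Car8*, *Aass*, *Apoa2*, *S100g*, *Lgals2*, *Sord*, *Card14*, *Fcgrt*, *Apoc2* and *Igfbp5*. *S100g*, a calcium-binding protein of absorptive epithelia, had 52.1 against 349 CPM and 97.6 against 315 CPM. The 10 lowest genes had 1 to 1526 UMIs in control members, and *Car8* had 1.

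Genes of other cell types were also read in the members. Of 14 genes of definitive endoderm and axial mesendoderm, 10 had UMIs in members of each library, with a sum of 4057 and 3619 CPM, of which *Emb* made up 3658 and 3241 CPM. *Emb* stood at 3147 and 2967 CPM in the other visceral endoderm too, where the sum was 3199 and 3007 CPM. In the marker-rich cells alone the sum was 4370 and 4753 CPM, of which *Emb* made up 3847 and 3816 CPM. *Shh*, *Nkx2-1* and *Foxd4* were at 0 in the members of both libraries. *Trh*, which encodes the thyrotropin-releasing hormone precursor, was high, at 233 and 287 CPM against 17.3 and 16.1 CPM, and *Krt19* at 90.9 and 48.3 CPM against 14.7 and 9.87 CPM. In the marker-rich cells *Trh* stood at 334 and 730 CPM. Of 10 epiblast genes, 8 and 10 had UMIs, with a sum of 653 and 610 CPM against 516 and 465 CPM in the other visceral endoderm. *Dnmt3b* was the most abundant of them (301 and 315 CPM), and *Sox2*, which the epiblast and the extraembryonic ectoderm both held, was at 0 in control members and in the marker-rich of both libraries. Of 9 extraembryonic ectoderm genes the sum was 37.7 and 47.4 CPM, with *Cdx2* the most abundant. Of 14 mesoderm and blood genes it was 36.5 and 108 CPM, of which *Runx1* made up 22.7 and 42.0 CPM, with *Hba-x* and *Hbb-bh1* at 0 in both libraries. Of 10 parietal endoderm genes it was 1100 and 1166 CPM against 775 and 735 CPM, led by *Col4a1*, and *Srgn* was higher (ratios 5.16 and 7.13). The part of such cells in the results was not tested.

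The marker-rich cells differed among themselves in *Dkk1*, which ran from 0 to 267 UMIs in control and from 0 to 497 UMIs in *Yap1* cKO cells. At a limit of 50 UMIs, chosen after the values were seen, 6 control and 9 *Yap1* cKO cells were above it, and 9 and 7 below. *Dkk1* is a gate gene, and cells with little of it entered the gate through *Sfrp5* or *Hesx1*, so the ratios below describe these gated cells and carry no test. *Bmp2* was higher above the limit in both libraries, at 337 against 88.7 CPM in the control (ratio 3.80, 2.65 to 5.53) and 229 against 75.8 CPM in the cKO library (3.02, 2.09 to 4.46). *Pth1r* (2.32 and 1.88), *Cited1* (2.88 and 1.67) and *Dab2* (2.51 and 1.43) had higher ratios in the control. Without the cell with the most UMIs of the gene above and below the limit, an alternative chosen after seeing the data, they had 2.23, 2.31 and 2.33 in the cKO library, past 2-fold there too. *Sox17* was past 2-fold in the control alone, also without those cells, with ratios of 3.43 (2.68 to 4.42) and 1.26 (1.03 to 1.54). *Lhx1* was lower above the limit, at 110 against 684 CPM (0.161, 0.110 to 0.229) and 230 against 546 CPM (0.421, 0.347 to 0.511). *Otx2* was lower too, at 170 against 401 CPM and 108 against 288 CPM, as were *Tcf7l2*, *Cyp26a1*, *Robo1*, *Fzd8* and *Id1*, and without those cells each was at least 2-fold lower in both libraries. The Wnt target *Sp5* had 18 and 55 UMIs above the limit and 0 below it in both libraries, but 55.6% and 36.4% of them lay in 1 cell. *Lefty1* had 1 and 5 UMIs above the limit and 39 and 23 below it, with 62.5% and 46.4% in 1 cell. *Cer1* had ratios of 1.04 (0.869 to 1.24) and 1.01 (0.846 to 1.21), or 0.823 and 1.34 without its top cells. *Trh* had ratios of 4.60 in the control and 0.664 in the cKO library, but 79.7% of its cKO UMIs below the limit lay in 1 cell, and without the top cells the ratios were 4.52 and 1.92 (1.51 to 2.48), on the same side of 1.

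**Figure D3:**
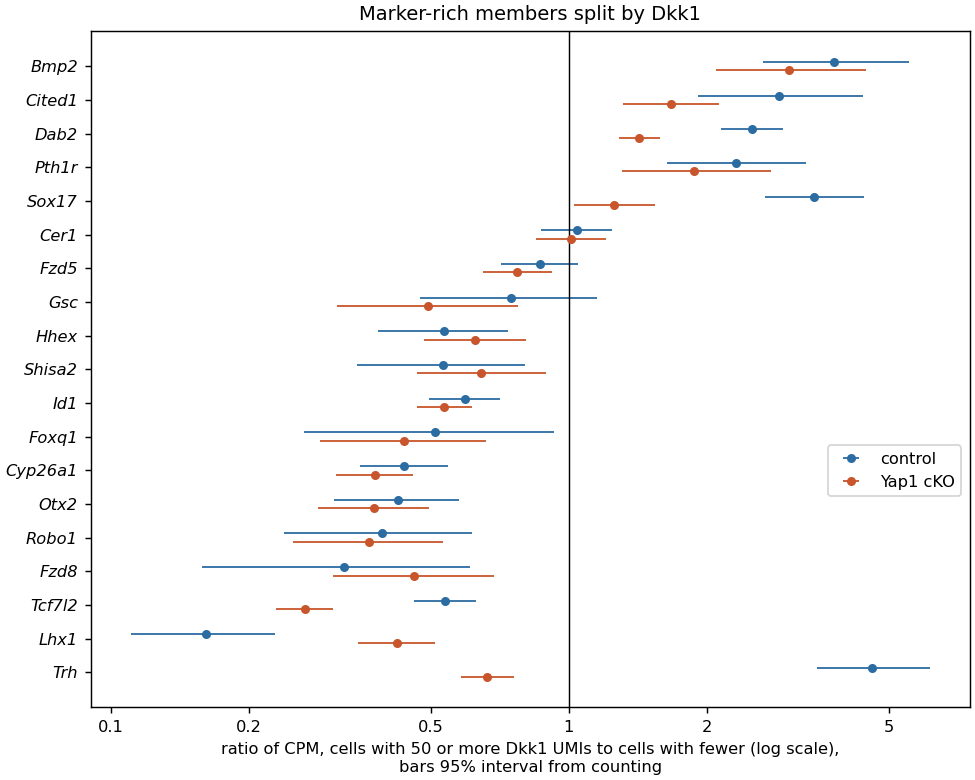
Ratio of CPM between marker-rich members with 50 or more *Dkk1* UMIs (6 control and 9 *Yap1* cKO cells) and those with fewer (9 and 7), on a log axis, with 95% counting intervals. *Bmp2* and *Cited1* lie right of 1 and *Otx2* and *Lhx1* left of it in both libraries. *Trh* lies on opposite sides with all cells, where 1 cell holds 79.7% of the cKO UMIs below the limit, and on the same side without the top cells (4.52 and 1.92, not drawn).

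The genotypes were compared within the members to see whether loss of *Yap1* in the epiblast goes with differences in these cells. *Yap1* itself had 59 UMIs in 24 of 27 control members and 111 UMIs in 36 of 50 *Yap1* cKO members. That is 35.3 and 25.9 CPM, a ratio of 0.734 (0.531 to 1.02). In marker-rich cells it had 34 and 19 UMIs (41.8 and 14.9 CPM), a ratio of 0.357 (0.192 to 0.643), with UMIs in 13 of 15 control and 10 of 16 *Yap1* cKO cells. In the other members the ratio was 1.05 (0.668 to 1.70), in the other visceral endoderm 0.822 (0.685 to 0.989) and in the extraembryonic ectoderm 0.735 (0.623 to 0.866). In epiblast cells, where Sox2-Cre acts, it was 0.0461 (0.0287 to 0.0707). The intervals of marker-rich cells and of the other visceral endoderm do not overlap at this limit, which was chosen after the values were seen, and they rest on 19 UMIs in the cKO library. At a marker-rich minimum of 5 UMIs the ratio was 0.588 (0.362 to 0.959) and the intervals overlap. Thinned to 31000 UMIs, 60.0% of control members (38.7 to 78.9) and 57.1% of *Yap1* cKO members (42.2 to 71.2) had a *Yap1* UMI.

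**Figure D4:**
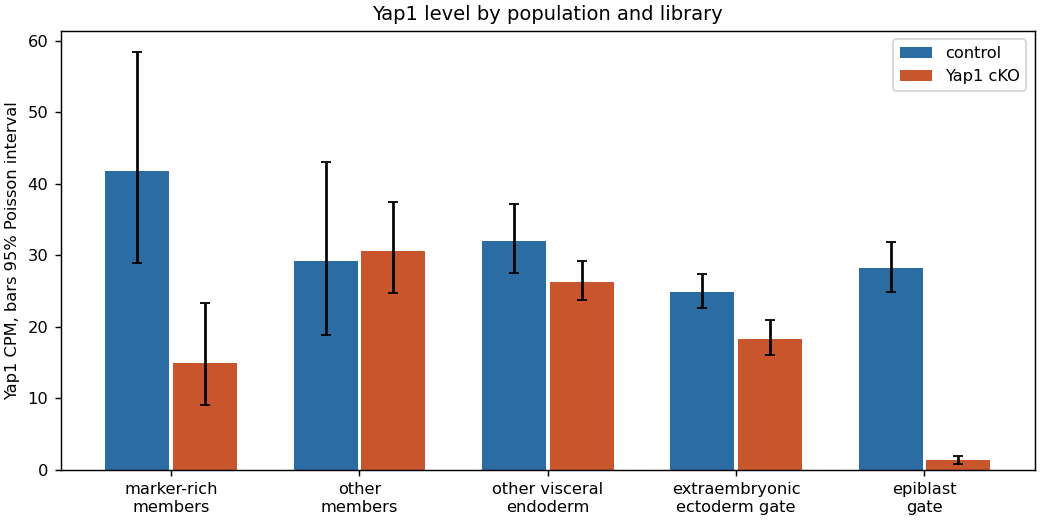
*Yap1* CPM in 5 populations of the control and *Yap1* cKO libraries, with bars for the 95% Poisson interval. Marker-rich members stand at 41.8 and 14.9 CPM, the other members at 29.1 and 30.6 CPM, and epiblast cells at 28.2 and 1.30 CPM.

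Of 6818 genes with at least 100 UMIs in the members of both libraries together, 138 (2.02%) were at least 2-fold higher and 58 (0.851%) at least 2-fold lower in *Yap1* cKO members with an interval without 1. In the marker-rich cells these were 10 (0.288%) and 8 (0.230%) of 3476 genes. The median ratio was 1.01 in both. The shares of marker-rich cells among members were 55.6% and 32.0%, so ratios over all members also read the makeup of the gate, and the main ones are given below beside those in marker-rich cells.

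Of the AVE markers outside the gate, 14 reached the minimum over all members and 5 were lower in *Yap1* cKO members: *Cer1* (0.451, 0.403 to 0.505), *Lhx1* (0.496, 0.439 to 0.560), *Fzd5* (0.464), *Otx2* (0.336, 0.281 to 0.403) and *Gsc* (0.318, 0.241 to 0.419). In marker-rich cells, without *Fzd5* and *Hhex*, which chose them, none of 11 measured was past 2-fold. *Otx2* stood at 311 and 173 CPM there, a ratio of 0.558 (0.463 to 0.670), *Gsc* at 122 and 65.9 CPM (0.542, 0.400 to 0.732), *Cer1* at 643 and 434 CPM (0.675, 0.598 to 0.762) and *Lhx1* at 460 and 344 CPM (0.749, 0.651 to 0.862). *Prdm1*, a transcriptional repressor, stood at 60.2 and 108 CPM (1.80, 1.29 to 2.54), against a ratio of 0.982 over all members, and *Eomes* at 102 and 109 CPM (1.07, 0.809 to 1.42). The *Otx2* ranges of 1 to 40 and 0 to 39 UMIs per marker-rich cell overlapped almost fully.

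Some genes of absorptive endoderm were higher in *Yap1* cKO members. Of 12 genes of the extraembryonic visceral endoderm, 5 were higher: *Apoc2* (3.68), *Apoa2* (2.07), *Cubn* (2.27), *Gpx3* (2.54) and *Aqp8* (4.29). Without the control cell that held 61.9% of the control *Apoc2* UMIs, and the top *Yap1* cKO cell, the *Apoc2* ratio was 8.45, and likewise that of *Aqp8* was 7.55. Of 13 endocytic and lysosomal genes 2 were higher (*Lrp2* and *Cubn*), and of 15 measured apolipoproteins and secreted proteins 2 (*Apoa2* and *Apoc2*), with median log2 ratios of 0.17 and 0.14. *Lrp2* had a ratio of 5.64 with all cells and 20.5 without the top cell of each library. In the other visceral endoderm *Apoc2* had a ratio of 1.21 and *Cubn* of 1.01. In marker-rich cells *Apoc2* (3.46, 2.27 to 5.48), *Cubn* (2.94, 2.44 to 3.57) and *Cited1* (2.19, 1.76 to 2.74) were higher. However, 2 of the 16 cKO cells held 80.4% of the *Cubn*, 70.9% of the *Apoc2* and 97.1% of the *Lrp2* UMIs of marker-rich cKO cells, and neither had an *Otx2* or *Gsc* UMI. Leaving out these 2 cells, those of most *Cubn* in this library, was chosen after seeing the data. Such a choice in 1 library lowers the *Cubn* ratio by construction. It gave a ratio of 0.687 (0.534 to 0.883) for *Cubn*, 1.20 (0.716 to 2.04) for *Apoc2* and 1.78 (1.42 to 2.25) for *Cited1*. The *Otx2* ratio was then 0.664 (0.552 to 0.798), that of *Gsc* 0.645 (0.476 to 0.871) and that of *Yap1* 0.335 (0.170 to 0.632). Without the 2 cells of most *Cubn* in each library, the interval of the *Cubn* ratio was 0.749 to 1.35, the *Apoc2* ratio was 1.65 (0.905 to 3.15) and the *Cited1* ratio was 2.26 (1.73 to 2.98). *Cubn* and *Apoc2* were thus not past 2-fold under either choice, whereas *Cited1* lay on both sides of it. Without only the top cell of each library, however, all of them were past 2-fold. The ratios were then 2.05 (1.63 to 2.59) for *Cubn*, 2.92 (1.75 to 5.16) for *Apoc2* and 2.20 (1.70 to 2.87) for *Cited1*. These calls therefore depend on which cells are left out.

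*Cdkn2a* was lower in *Yap1* cKO members (104 and 39.0 CPM, ratio 0.377, 0.303 to 0.469), in marker-rich cells (0.467, 0.350 to 0.620) and in the other visceral endoderm (0.382, 0.314 to 0.466). *Trh* was higher in marker-rich *Yap1* cKO cells, at 334 and 730 CPM (2.18, 1.91 to 2.51), with 0 to 101 UMIs per control and 0 to 342 UMIs per *Yap1* cKO cell. Of these UMIs 37.1% and 36.7% lay in the top cell, and the ratio without both was 2.16 (1.82 to 2.57). The cells with the most *Trh* held 101, 59 and 33 of 272 control UMIs and 342, 218 and 153 of 931 cKO UMIs. Leaving out more of these cells was not tried, so the call rests on few cells. *Cyp26a1*, which breaks down retinoic acid, had a ratio of 0.405 in members, 0.582 (0.511 to 0.663) in marker-rich cells and 1.34 (1.21 to 1.49) in the other visceral endoderm. *Crabp2*, which carries retinoic acid, had 0 UMIs in control members, which allows up to 1.80 CPM, and 109 in *Yap1* cKO members, at least 14.2-fold higher. Only 4 of the 109 came from marker-rich cells. *Nodal* had a ratio of 0.583 (0.441 to 0.774) in members and 1.44 (0.824 to 2.62) in marker-rich cells. Without the top cell of each library these were 0.514 (0.371 to 0.717) and 1.05 (0.530 to 2.16).

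Among signal pathways, genes past the limits are set beside the shares of all genes, 2.02% higher and 0.851% lower. Over all members, *Fzd5* and *Tcf7l1* were lower and *Nkd1*, a Wnt feedback inhibitor, was higher among 17 measured Wnt genes. *Smad6*, *Id2* and *Msx2* were higher among 13 BMP genes, *Etv5* among 14 FGF genes and *Efnb1* among 22 migration genes. In marker-rich cells fewer genes of these lists were measured, 10 Wnt, 7 BMP, 4 FGF and 14 migration genes, and none of them was past 2-fold. Of the genes just named *Fzd5*, which chose those cells, and *Tcf7l1* (0.720, 0.525 to 0.990) were measured there, and the rest were not. *Etv5*, for example, had 8 and 30 UMIs in marker-rich cells (2.39, 1.07 to 6.04), and *Smad6* 20 and 27 UMIs (0.862, 0.466 to 1.62). None of 15 Hippo genes was past 2-fold in members: *Tead1* had a ratio of 0.886 (0.764 to 1.03), *Wwtr1*, the homolog of *Yap1*, of 1.14 (0.803 to 1.66) and *Amotl2*, a YAP1 target and inhibitor, of 0.567 (0.394 to 0.820). *Ccn1* and *Ccn2*, YAP1 targets, had few UMIs (21 and 33, and 13 and 20), and their ratios of 0.613 (0.344 to 1.12) and 0.600 (0.284 to 1.31) leave a difference undetermined at this depth. *Pdgfra* was past 2-fold (4.93, 2.67 to 10.1) of 2 mesoderm and blood genes measured, with 0 and 2 UMIs in marker-rich cells.

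**Figure D5:**
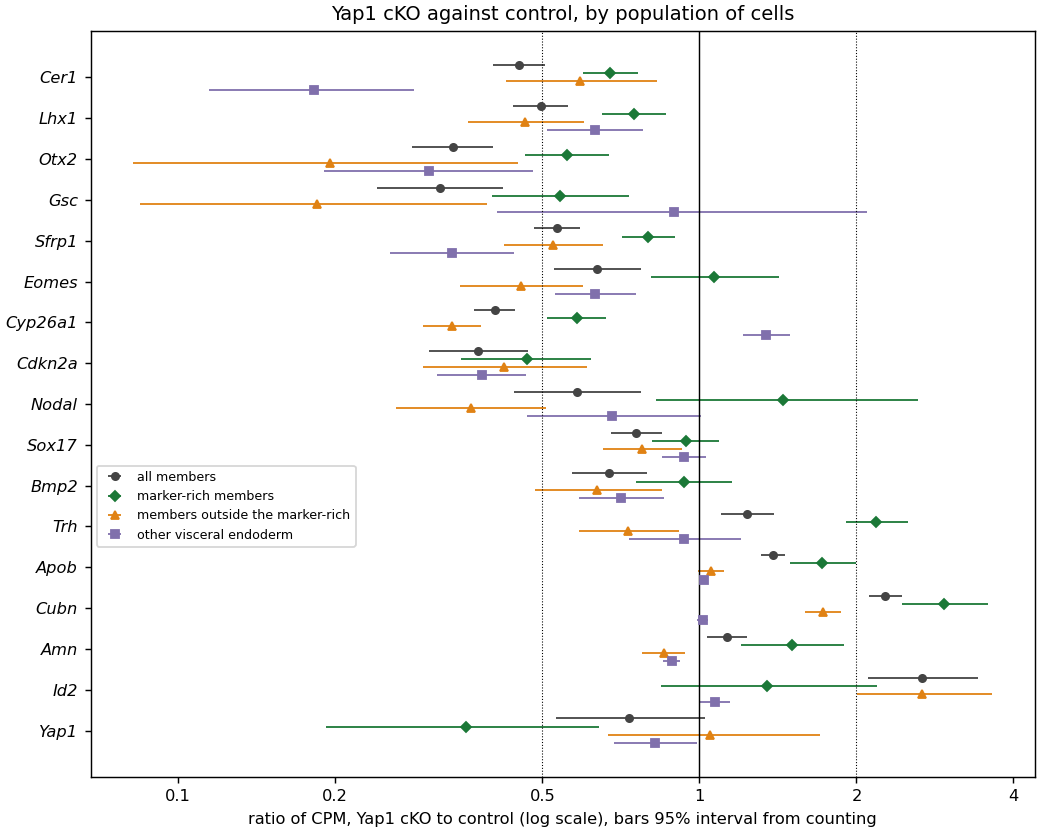
Ratio of CPM between the *Yap1* cKO and control libraries for 17 genes in 4 populations, on a log axis with 95% counting intervals and dotted lines at 2-fold. *Cer1* (0.675 and 0.451), *Otx2* (0.558 and 0.336) and *Gsc* (0.542 and 0.318) lie nearer 1 in marker-rich members than in all members, *Cdkn2a* lies left of 0.5 in all 4, and *Yap1* is lowest in marker-rich members.

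By rule, the 5 genes highest in *Yap1* cKO members were *Cdk5rap1*, *Pcyt1a*, *Herpud1*, *Slc35f6* and *Ccdc93*. *Cdk5rap1*, which modifies mitochondrial transfer RNAs, had a ratio of 5.02 (2.46 to 11.9) in members and 3.01 (2.21 to 4.19) in the other visceral endoderm. *Pcyt1a*, an enzyme of phosphatidylcholine synthesis, had 3.18 in members and 0.912 in marker-rich cells. The 5 lowest were *Cd8a*, *Cadps2*, *Otx2*, *Cald1* and *Cdkn2a*. *Cd8a*, known as a T cell coreceptor and located on chromosome 6 from 71373427 to 71379173 (mm10), gave 98 UMIs over the control members and 71 over the cKO members. Of these, 84 and 68 were in marker-rich cells (103 and 53.4 CPM). The much larger other visceral endoderm gave 11 and 5 UMIs, with 0 UMIs in epiblast and extraembryonic ectoderm cells. The ratio of *Yap1* cKO to control was 0.283 (0.205 to 0.388) in members and 0.517 (0.370 to 0.720) in marker-rich cells.

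Cells with at least 2 Y-linked UMIs and no *Xist* (Y-bearing) were 6 of 27 control (22.2%) and 11 of 50 *Yap1* cKO members (22.0%), and 4 of 15 and 6 of 16 marker-rich cells. In the other visceral endoderm they were 25 of 71 (35.2%, 24.2 to 47.5) and 8 of 175 (4.57%, 1.99 to 8.81), so the sexes were unequal there between the libraries. Among Y-bearing members the *Otx2* ratio was 0.379 and that of *Cer1* 0.411, and among Xist-bearing members 0.252 and 0.270. *Gsc* had ratios of 1.05 and 0.132 and *Fzd5* of 0.891 and 0.235, and the difference between the sexes was not tested. The *Yap1* ratio in marker-rich cells was 0.285 (0.0611 to 1.12) for Y-bearing and 0.557 (0.264 to 1.12) for Xist-bearing cells, so neither interval leaves out 1. In the other visceral endoderm it was 0.551 (0.282 to 0.990) and 1.20 (0.920 to 1.58). Sex, embryo and library cannot be told apart beyond this.

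The main AVE genes lie apart in the genome (mm10, GENCODE M21 gene bounds): *Cer1* on chromosome 4 from 82881751 to 82885148, *Otx2* on chromosome 14 from 48657677 to 48673819, *Lhx1* on chromosome 11 from 84518284 to 84525535, *Gsc* on chromosome 12 from 104471209 to 104473330 and *Fzd5* on chromosome 1 from 64730558 to 64737751. Since they were abundant in the same cells, their RefSeq promoters (GRCm38.p6, from 250 bases before to 50 after the start) were searched for TAATCC, the core bound by Otx2 and Gsc, on both strands. The letters occur in 8.14% of 27025 genes. Of 19 AVE and gate genes, 15 had a promoter in the table and 1 held them: an alternative promoter of *Otx2* itself, on the minus strand at chr14:48665060-48665359. It is printed with the match, read on the opposite strand as GGATTA, in capitals.
Otx2: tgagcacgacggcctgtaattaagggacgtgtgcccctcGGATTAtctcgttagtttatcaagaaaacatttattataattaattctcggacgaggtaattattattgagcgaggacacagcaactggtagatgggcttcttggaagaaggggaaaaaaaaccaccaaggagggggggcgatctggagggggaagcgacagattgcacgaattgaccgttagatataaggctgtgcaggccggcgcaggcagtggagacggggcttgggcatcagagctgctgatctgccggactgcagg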

How the data were processed

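Per the labels, the authors counted UMIs with Cell Ranger 7.1.0 on mm10; the deposited values are whole UMI counts of 32285 genes per barcode, without normalization. The annotation behind them is not given in the sources used here. The libraries held 1829 and 1897 barcodes with 70573418 and 87937858 UMIs, and the gene minimum left 791 and 864 cells. SoupX was not repeated, and doublets were not removed (scrublet in scanpy 1.11.5 called 4 and 19 cells, 1 of them a member). Members and gene lists were chosen with earlier results of these data known.

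UMIs were summed over cells and scaled to CPM in python 3.11.15 with numpy 2.4.6 and scipy 1.17.1, with exact 95% limits: Clopper-Pearson for shares, Poisson for a CPM and, for a ratio, the binomial given its UMI total; floors are 3 counts over the group. Mitochondrial, ribosomal protein, Y-linked and gate genes, *Xist* and *Tsix* were left out of the counts of genes. Y-bearing cells had at least 2 Y-linked UMIs and no *Xist*, and Xist-bearing cells the reverse. Named genes were those of the 20 lists, the 10 highest and 10 lowest in members among genes with a UMI in at least 50% of the cells of the higher population in each library, and the 5 highest and 5 lowest between genotypes, the latter with 1 direction in both sexes, and none with over 20% of its UMIs in 1 cell in that ranking. The ratio intervals were tested on simulated Poisson counts only. These lack the unevenness between cells seen in the data, so the test does not show how the intervals cover it.

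Alternatives changed the gates, the gene minimums, the scaling, the sexes, doublets and single cells. Some genes of the lists are not reported here.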

Additional observations from a re-analysis of the deposited data

Results flagged for a closer look

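Of the genes of the lists, 13 had a ratio of *Yap1* cKO to control on opposite sides of 1 in members and in the other visceral endoderm, with both intervals without 1. The difference between the populations was not tested. Higher in *Yap1* cKO members and lower in the other visceral endoderm were *Pdgfra* (4.93 in members), *Aqp8* (4.29), *Lama1* (1.81), *Utf1* (1.63), *Rdh10* (1.60), *Cd63* (1.44), *Dab2* (1.40), *Sparc* (1.31), *Amn* (1.13) and *Rhox5* (1.11). Lower in *Yap1* cKO members were *Cyp26a1* (0.405), *Slc16a1* (0.742) and *Id1* (0.891).

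Barcodes with at least 1000 but under 5000 detected genes, which the gene minimum left out, also held cells that passed the other AVE gates: 5 control and 6 cKO barcodes.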

How the results depend on the processing

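No paired analysis was possible because each genotype has 1 library. The main values were 27 control and 50 cKO members, 233 genes higher and 49 lower than in the other visceral endoderm, 10 AVE genes higher, 138 genes higher and 58 lower in cKO than in control members, and a *Yap1* ratio of 0.734.

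A gate of 3 UMIs gave 24 genes lower than in the other visceral endoderm and 59 higher in cKO, and a gate of 10 UMIs gave 16 and 30 members and 208 genes lower than in the other visceral endoderm. With the gates read on thinned cells there were 16 and 27 members, 317 genes were lower than in the other visceral endoderm, 24 were higher and 12 lower in cKO, and the *Yap1* ratio was 0.422. The mean of each cell's CPM gave 76 genes lower than in the other visceral endoderm. A gene minimum of 20 UMIs gave 589 and 145 genes higher and lower than in the other visceral endoderm and 359 and 238 between genotypes, and a minimum of 300 gave 88 and 21, 6 AVE genes, and 39 and 18. Y-bearing cells alone gave 51 genes and 5 AVE genes higher than in the other visceral endoderm, and 41 higher and 22 lower in cKO. Xist-bearing cells alone gave 137 and 14 genes higher and lower than in the other visceral endoderm. Without thinning, 88.9% and 72.0% of members had a *Yap1* UMI.

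The division by marker-rich cells was chosen after seeing the data. Marker-rich cells alone gave 391 and 473 genes higher and lower than in the other visceral endoderm, 10 and 8 between genotypes and a *Yap1* ratio of 0.357, which was 0.342 at a marker-rich minimum of 20 UMIs and 1.05 outside the marker-rich. The marker-rich *Cubn* ratio turned from 2.94 to 0.687 without 2 cKO cells, also chosen after seeing the data, and the cKO ratio of *Trh* across the *Dkk1* limit from 0.664 to 1.92 without the top cells. The *Nodal* ratio of cKO to control turned from 0.583 to 2.18 (gate of 10), 1.29 (thinned gates), 1.59 (Y-bearing) and 1.44 (marker-rich), and that of *Trh* from 1.23 to 0.668 (Y-bearing) and 0.731 (outside the marker-rich). The cause of these moves was not tested. With 1 library per genotype, differences between embryos and libraries cannot be told apart from genotype.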
